A study of Mus musculus with 26 samples.

Results

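The genes described here are 10 transcripts of Leydig cell steroidogenesis, *Star*, *Scarb1*, *Cyp11a1*, *Cyp17a1*, *Hsd3b1*, *Hsd3b6*, *Hsd17b3*, *Lhcgr*, *Nr5a1* and *Insl3*, picked by symbol from the 23337 genes of the count data. All 10 symbols were found. They were followed in testis and, for the contrast between tissues, in 2 epididymal regions, the initial segment (IS) and the caput. WT mice were compared with ArKI mice, whose androgen receptor carries arginines in place of its conserved SUMO acceptor lysines. The replacement is a germline knock-in on the X chromosome and is therefore present in every cell type of these males. All mice were of the strain C57Bl/6N; 129 hybrid and 3 months old. Testis was represented by 3 WT and 3 ArKI samples, and IS and caput by 5 WT and 5 ArKI samples each, which gives 26 samples.

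Leydig cells lie between the seminiferous tubules and make the testosterone that drives male development and the epididymis. Luteinizing hormone acts on its receptor at their surface and raises cAMP. Cholesterol then enters the mitochondrion, where its side chain is removed, and a short chain of enzymes in the endoplasmic reticulum turns the resulting pregnenolone into testosterone. Androgen receptor in Leydig and Sertoli cells is itself part of the feedback on this chain, and sets the question asked of the genotypes: whether these transcripts differ when the receptor cannot carry SUMO.

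Reads assigned to genes numbered 14077013 to 21376604 per testis library, 5829074 to 9770625 per IS library and 4125768 to 11913469 per caput library, so the smallest level that 3 counts represent was 0.141 to 0.215 CPM (counts scaled to library size) in testis, 0.313 to 0.512 CPM in IS and 0.247 to 0.692 CPM in caput. CPM values were scaled by the trimmed mean of M values (TMM). Testis was sequenced in a run of its own, so differences between testis and epididymis cannot be told apart from differences between runs. Whole tissue was measured, and a change in the number of Leydig cells cannot be told apart from a change in RNA per cell. Per the methods of the study, the segments came from 5 mice and the testes from 3 mice of each genotype, and the labels do not tie segments to mice, so the tissue comparisons treat samples as independent. Germ cell markers summed to 15260 to 19100 CPM over the testis samples, and all 10 steroidogenic genes were counted in each of the 6 testis libraries.

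In WT mice, 9 of the 10 genes were higher in testis than in IS, and 9 than in caput (edgeR's quasi-likelihood test, FDR below 0.05, with more than a 2-fold difference), limits at which 38.5% and 38.1% of all tested genes were higher. *Hsd3b1*, *Hsd3b6*, *Hsd17b3*, *Nr5a1*, *Insl3* and *Lhcgr* passed the filter on low counts through testis and in neither segment, and *Cyp11a1* did not pass it in caput, so the counts are a description and are not read against those shares. When no sample could fall below 10 counts, *Star* and *Scarb1* were left in the test, and 1 of them, *Star*, was higher in testis. Values in this paragraph are CPM with the 13 WT libraries scaled together. *Hsd3b6* (110 ± 28.7 CPM, SD, n = 3), *Nr5a1* (56.2 ± 7.71 CPM) and *Hsd17b3* (29.3 ± 2.04 CPM) in testis had 0 counts in all 10 WT epididymal libraries. Set against 3 counts per library, they were at least 329-fold, 168-fold and 87.4-fold higher in testis than in IS. *Hsd3b1* (72.8 ± 23.2 CPM in testis) had 1 count in the 5 WT IS libraries together, a ratio of 3302 with a 95% counting interval from 592 to 130500, and 0 counts in caput. *Cyp11a1* was at 168 ± 21.8 CPM in testis, 1.70 ± 0.718 CPM in IS and 0.654 ± 0.131 CPM in caput. *Star* was at 120 ± 38.0 CPM in testis, 1.65 ± 0.535 CPM in IS and 1.60 ± 0.336 CPM in caput. *Insl3* was 96.2-fold and *Lhcgr* 31.2-fold higher in testis than in IS, but 8 of the 10 *Lhcgr* counts in IS came from WT IS replicate 1, and without that library the log2 difference of *Lhcgr* was 6.71 in place of 4.96. With the trend on exon length removed, the log2 difference of *Insl3* was 2.37 in place of 6.59. Part of the *Insl3* counts in each tissue could belong to the overlapping gene *Jak3*.

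*Scarb1*, the receptor that takes up cholesteryl esters from high-density lipoprotein, was the exception among the 10. It measured 185 ± 6.64 CPM in WT testis, 167 ± 12.5 CPM in IS and 156 ± 17.4 CPM in caput. The log2 difference was 0.15 between testis and IS (SE 0.075, adjusted p = 0.072, edgeR) and 0.24 between testis and caput (SE 0.075, adjusted p = 0.0049). Scaling by library size alone turned both differences negative, to -0.26 and -0.15, so no direction between tissues is given for *Scarb1*. Between WT caput and WT IS, *Cyp17a1* was 12.4-fold higher in caput (13.9 ± 1.81 against 1.13 ± 0.275 CPM, adjusted p = 5.27e-14, edgeR), with the groups far apart. It was the one gene of the 10 that passed the filter on low counts in both segments and also differed at the limits above, which 22.4% of all tested genes did, and it was itself left out when 10 counts were required in every sample. *Cyp11a1*, below the filter in caput, and *Insl3*, below it in both segments with 16 counts in 5 WT IS libraries and 4 in 5 WT caput libraries, are given between segments by these values without a test.

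**Figure D1:**
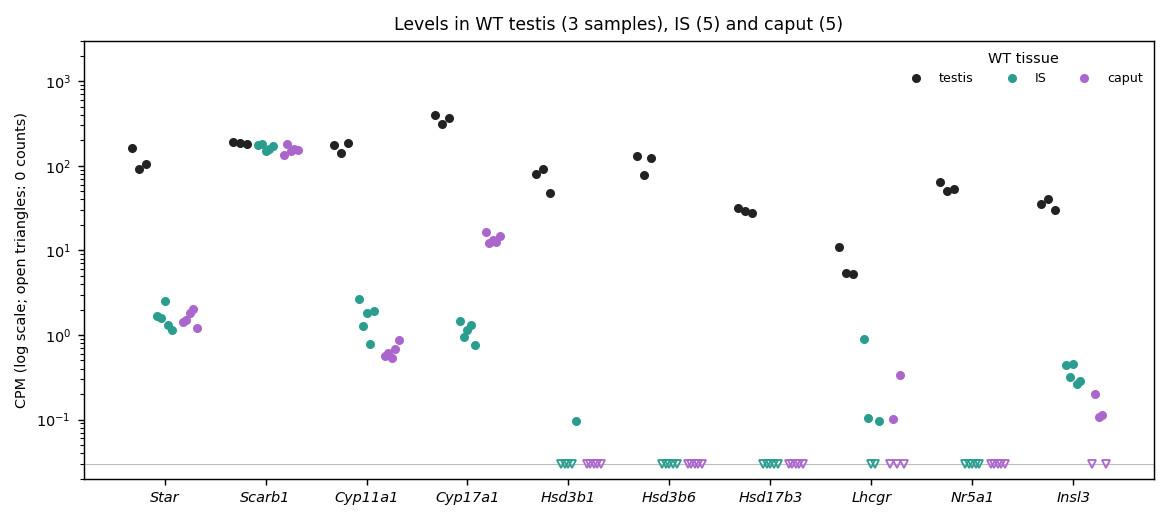
CPM of the 10 genes in the WT testis (3 samples), IS (5) and caput (5) samples, on a log scale; each point is a sample, and open triangles on the grey line mark libraries with 0 counts. *Scarb1* lies at 135 to 192 CPM in all 3 tissues, *Cyp17a1* alone among the others exceeds 10 CPM in an epididymal segment, and *Hsd3b6*, *Hsd17b3* and *Nr5a1* have no count there.

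Per kilobase of transcript, so that genes can be compared with each other, *Cyp17a1* was the most abundant of the 10 in WT testis, at 199 ± 22.7 CPM per kb (n = 3). *Cyp11a1* followed at 79.0 ± 10.3, *Scarb1* at 73.2 ± 2.63, *Hsd3b6* at 61.2 ± 15.9, *Insl3* at 56.6 ± 8.85, *Hsd3b1* at 39.2 ± 12.5, *Star* at 29.6 ± 9.40, *Hsd17b3* at 22.8 ± 1.58 and *Nr5a1* at 18.8 ± 2.57 CPM per kb. *Lhcgr*, the receptor for luteinizing hormone, was last at 1.06 ± 0.480 CPM per kb. Only the steps below *Cyp17a1* and above *Lhcgr* separated neighbours without overlap, and each of the other neighbouring pairs overlapped between samples. Lengths are those of 1 annotated transcript per gene, 2120 bases for *Cyp11a1* and 2521 for *Scarb1*. All annotated exons of these genes cover 4804 and 8500 bases, so their places in the order depend on this choice.

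In testis, ArKI samples held more *Cyp11a1*, *Cyp17a1* and *Hsd17b3* RNA than WT samples, by 1.9-fold, 1.5-fold and 1.4-fold at an FDR below 0.2, each short of the 2-fold limit of the study, while *Star*, *Scarb1*, *Hsd3b1*, *Hsd3b6*, *Lhcgr*, *Nr5a1* and *Insl3* did not pass the test. These 3 rises are the enzymes that open the pathway, convert its intermediates to androgen and make testosterone itself. At an FDR below 0.2, 3 of 10 genes were called, against 5.34% of the 15838 genes tested. The 10 genes were chosen with earlier results of these data known, so this count is a description. With the additional limit of a fold change above 2, which 0.833% of tested genes passed, none of the 10 was called by edgeR, while 4 had an unadjusted p under 0.05. DESeq2 and limma on voom values also called 0 of the 10 with the fold limit. The median log2 fold change was 0.096 over the 10 genes and -0.0023 over all tested genes. WT and ArKI samples did not overlap for 4 of the 10 genes, against 17.8% of tested genes. Over the tested genes, log2 fold changes in testis went down with exon length (Spearman rho = -0.307 across genes, which are not independent, against -0.0497 in IS and 0.00127 in caput). Genes with 1000 to 2500 bases of exon had a median of 0.05. *Hsd17b3* (1391 bases) lies in that class, and *Cyp11a1* (4804) and *Cyp17a1* (2769) lie above it. With the trend on exon length removed, *Cyp11a1*, *Cyp17a1* and *Hsd17b3* had log2 fold changes of 0.92, 0.54 and 0.41 (adjusted p = 4.31e-09, 1.74e-05 and 0.00597, edgeR).

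**Figure D2:**
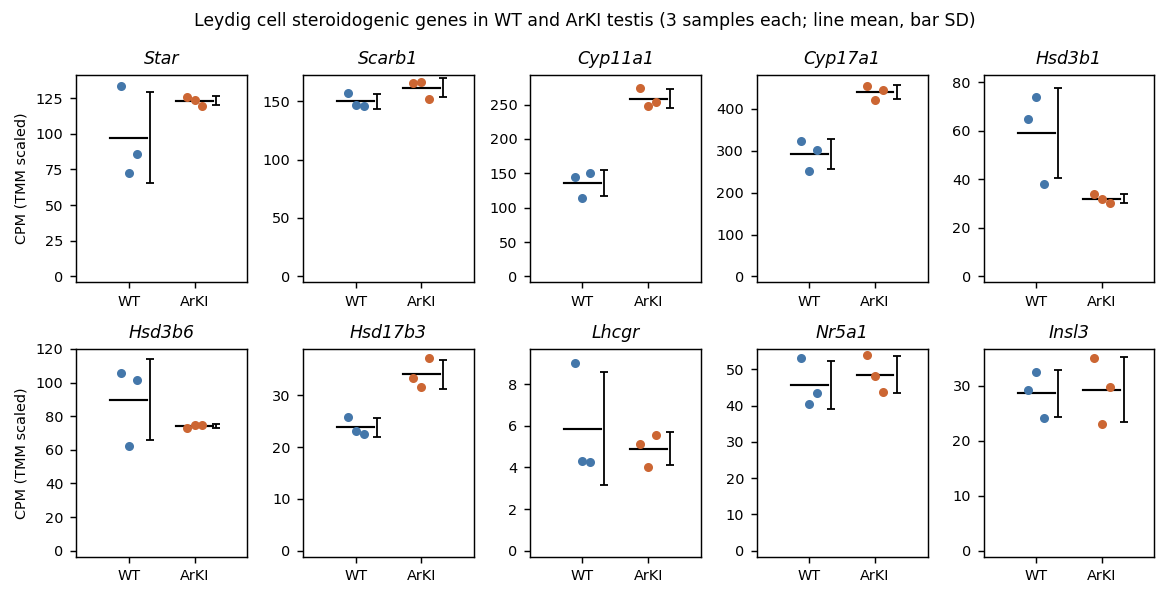
CPM of each of the 10 genes in the 3 WT (blue) and 3 ArKI (orange) testis samples, with the mean (line) and SD (bar) and a separate linear axis from 0 for each gene. *Cyp11a1*, *Cyp17a1* and *Hsd17b3* lie higher in every ArKI sample, *Hsd3b1* lies lower in every ArKI sample, and the other 6 genes overlap.

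Cholesterol supply came first in the order of the pathway. *Scarb1* (chr5:125277087-125341094, mm10, minus strand) measured 157, 147 and 146 CPM in WT testis replicates 1 to 3 and 166, 167 and 152 CPM in ArKI replicates 1 to 3. The log2 fold change was 0.11 (SE 0.063, adjusted p = 0.492, edgeR) and the samples overlapped. *Star* (chr8:25806555-25815982, plus strand) encodes the protein that carries cholesterol to the inner mitochondrial membrane, the step on which acute hormone action falls. It measured 133, 72.8 and 85.7 CPM in WT and 126, 124 and 120 CPM in ArKI. The ArKI samples lay close together, whereas WT replicate 1 stood above all of them and the other WT replicates below. The log2 fold change was 0.33 (SE 0.25, adjusted p = 0.668, edgeR). Without WT testis replicate 1 it was 0.63 with an adjusted p of 2.92e-05, so that library decided the call.

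*Cyp11a1* (chr9:58006411-58027023, plus strand) encodes the side-chain cleavage enzyme, which makes pregnenolone from cholesterol and is the first enzyme of every steroid pathway. It measured 144, 115 and 150 CPM in WT testis and 274, 248 and 253 CPM in ArKI testis. The lowest ArKI sample was far above the highest WT sample. The log2 fold change was 0.92 (SE 0.083, adjusted p = 1.05e-06, edgeR), higher than that of 99.0% of tested genes. It stayed between 0.81 and 1.00 whichever testis library was left out.

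*Cyp17a1* (chr19:46667165-46673172, minus strand) encodes the hydroxylase and lyase that turns progesterone into androstenedione in mouse Leydig cells. It measured 324, 252 and 302 CPM in WT testis and 455, 421 and 445 CPM in ArKI testis, again without overlap. On the log2 scale the change was 0.59 (SE 0.075, adjusted p = 4.35e-05, edgeR). *Hsd17b3* (chr13:64058266-64089230, minus strand) encodes the reductase that forms testosterone from androstenedione. It measured 25.9, 23.1 and 22.5 CPM in WT testis and 33.3, 31.6 and 37.1 CPM in ArKI testis. All ArKI samples were above all WT samples, with a log2 fold change of 0.51 (SE 0.090, adjusted p = 0.00165, edgeR).

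*Hsd3b1* and *Hsd3b6* encode the hydroxysteroid dehydrogenases that turn pregnenolone into progesterone, *Hsd3b6* being known as the form of adult Leydig cells. They are neighbours on chromosome 3, *Hsd3b1* at chr3:98852194-98859794 and *Hsd3b6* at chr3:98805504-98814443, both on the minus strand. *Hsd3b1* measured 65.1, 73.8 and 38.3 CPM in WT testis and 33.9, 32.0 and 30.2 CPM in ArKI testis. Every ArKI sample was below every WT sample, but WT replicate 3 lay near the ArKI samples. Its log2 fold change of -0.89 (SE 0.27, adjusted p = 0.289, edgeR) did not pass the test. It passed with DESeq2 (adjusted p = 0.0937), in a fit of all 26 samples (adjusted p = 0.0384, edgeR), and without WT testis replicate 3, where the log2 fold change was -1.12 (adjusted p = 1.49e-07, edgeR) and past the fold limit. *Hsd3b6* measured 106, 62.0 and 101 CPM in WT testis and 72.8, 75.1 and 74.9 CPM in ArKI testis. The ArKI samples lay within the range of WT, and the log2 fold change was -0.28 (SE 0.22, adjusted p = 0.681, edgeR). Without WT testis replicate 2 it was -0.48 (adjusted p = 0.000128, edgeR). The WT replicates did not order alike for the pair: replicate 2 was highest for *Hsd3b1* and lowest for *Hsd3b6*.

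The coding sequences of the pair are alike at 1007 of 1119 aligned bases (89.99%), with 112 substitutions and no gap, so 50-base reads do not fully tell the pair apart. The deposited counts are of uniquely mapped reads, so a read that fits both genes equally is counted for neither. In the annotated transcripts, 95.02% of the 50-base windows of *Hsd3b1* and 83.86% of those of *Hsd3b6* occur in no other gene, and 38 windows are shared by the pair. A stretch that separates them runs from coding base 55 to 114 and is shown to make this visible, with capitals at the 14 bases that differ.
Hsd3b1, chr3:98857851-98857910, minus strand: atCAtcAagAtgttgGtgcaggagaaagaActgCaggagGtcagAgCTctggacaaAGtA
Hsd3b6, chr3:98810933-98810992, minus strand: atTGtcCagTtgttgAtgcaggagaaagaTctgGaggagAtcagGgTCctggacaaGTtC

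Upstream sequence was at hand in RefSeq (GRCm38.p6) for 6 of the 10 genes, and the 250 bases before the transcription start are printed for *Cyp11a1* and *Hsd17b3*, which rose in ArKI testis, and for the *Hsd3b* pair, which did not pass. Capitals mark matches, on either strand, to AGGTCA, the nuclear receptor half-site, or AGAACA, a half-site of androgen receptor. CAAGGTCA, an extended site of the kind bound by NR5A1 that contains AGGTCA, and TATAAA were searched as well.
Cyp11a1 promoter, chr9:58014702-58014951, plus strand: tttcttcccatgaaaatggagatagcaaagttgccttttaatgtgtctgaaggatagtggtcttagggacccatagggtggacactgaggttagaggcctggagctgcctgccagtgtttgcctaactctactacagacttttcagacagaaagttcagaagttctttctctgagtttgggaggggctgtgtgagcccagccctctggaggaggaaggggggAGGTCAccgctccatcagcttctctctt
Hsd17b3 promoter, chr13:64089202-64089451, minus strand: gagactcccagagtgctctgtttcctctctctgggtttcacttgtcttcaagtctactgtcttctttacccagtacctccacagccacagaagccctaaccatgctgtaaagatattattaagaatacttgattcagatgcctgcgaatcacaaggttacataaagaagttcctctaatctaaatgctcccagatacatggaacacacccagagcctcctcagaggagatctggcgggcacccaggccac
Hsd3b1 promoter, chr3:98859795-98860044, minus strand: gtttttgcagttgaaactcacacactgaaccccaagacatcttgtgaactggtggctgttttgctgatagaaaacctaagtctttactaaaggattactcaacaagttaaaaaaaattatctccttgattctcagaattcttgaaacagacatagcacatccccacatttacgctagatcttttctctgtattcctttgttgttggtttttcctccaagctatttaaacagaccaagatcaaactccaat
Hsd3b6 promoter, chr3:98814444-98814693, minus strand: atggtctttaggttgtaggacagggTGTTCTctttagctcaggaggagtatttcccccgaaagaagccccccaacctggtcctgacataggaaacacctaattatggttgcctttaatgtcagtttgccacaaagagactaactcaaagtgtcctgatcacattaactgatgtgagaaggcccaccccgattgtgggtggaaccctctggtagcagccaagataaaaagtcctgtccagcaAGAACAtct
AGGTCA was found 28 bases upstream of the *Cyp11a1* start shown, and AGAACA 9 and 225 bases upstream of *Hsd3b6*. *Lhcgr* held AGGTCA and AGAACA, 122 and 113 bases upstream, and no match was found for *Hsd3b1*, *Hsd17b3*, *Insl3* or the other start of *Cyp11a1*. Windows of this length held AGGTCA in 14.0% of 32851 promoters, AGAACA in 16.1%, TATAAA in 12.4% and CAAGGTCA in 1.33%. These are matches of letters and no measure of binding.

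The remaining genes report on Leydig cell identity and its hormone input. *Lhcgr* (chr17:88716481-88791990, minus strand) measured 9.0, 4.31 and 4.28 CPM in WT testis and 5.14, 4.04 and 5.54 CPM in ArKI testis. WT replicate 1 lay above the other 5 samples. The log2 fold change was -0.29 (SE 0.29, adjusted p = 0.736, edgeR), and 0.18 without WT replicate 1 (adjusted p = 0.786). *Nr5a1* (chr2:38692656-38714542, minus strand) encodes steroidogenic factor SF-1, a nuclear receptor of both Leydig and Sertoli cells that activates many genes of this pathway. It measured 53.2, 40.4 and 43.5 CPM in WT testis and 53.9, 48.2 and 43.7 CPM in ArKI testis, with a log2 fold change of 0.08 (SE 0.097, adjusted p = 0.776, edgeR).

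*Insl3* (chr8:71689214-71690575, plus strand) encodes the insulin-like hormone of mature Leydig cells and is used as a measure of their number and maturity. It measured 29.2, 32.5 and 24.1 CPM in WT testis and 35.0, 23.1 and 29.7 CPM in ArKI testis. The groups overlapped throughout, with a log2 fold change of 0.02 (SE 0.15, adjusted p = 0.971, edgeR). Only 38.15% of its 50-base windows are free of the overlapping gene *Jak3*, and no counting on strand is stated, so part of these counts could belong to *Jak3*. Among the WT testis replicates, replicate 1 was highest for *Star*, *Scarb1*, *Lhcgr*, *Nr5a1*, *Hsd3b6*, *Cyp17a1* and *Hsd17b3*, and was not highest for *Cyp11a1*, *Hsd3b1* or *Insl3*.

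Ratios of counts within a library do not depend on its scaling, and were taken between pairs chosen after the values had been seen. *Cyp11a1* had 1.56 ± 0.254 counts for each *Hsd3b6* count in WT testis (SD, n = 3) and 3.49 ± 0.250 in ArKI testis. Against *Nr5a1* the ratio was 3.00 ± 0.396 in WT and 5.34 ± 0.391 in ArKI, and against *Insl3* it was 4.89 ± 1.35 and 9.04 ± 1.51. Against *Star* it was 1.47 ± 0.347 and 2.10 ± 0.0876. In each of these 4 ratios every ArKI sample was above every WT sample, as descriptions without a test: of all 45 ratios between the 10 genes, 27 did not overlap between the genotypes. *Cyp11a1* relative to *Cyp17a1* was 0.465 ± 0.0273 in WT and 0.587 ± 0.0172 in ArKI, also without overlap. *Hsd3b1* relative to *Hsd3b6* varied from 0.378 to 1.19 among WT samples and from 0.403 to 0.466 among ArKI samples.

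**Figure D3:**
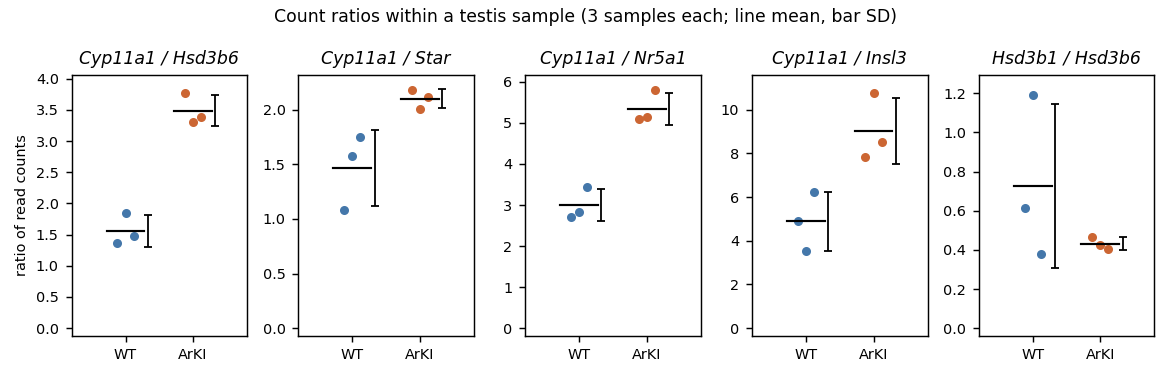
Ratios of read counts within each testis sample, 3 WT (blue) and 3 ArKI (orange), with mean (line) and SD (bar) on linear axes from 0. The 4 ratios with *Cyp11a1* on top lie higher in every ArKI sample, for *Hsd3b6* at 3.30 to 3.77 against 1.36 to 1.85, while *Hsd3b1* over *Hsd3b6* spans 0.378 to 1.19 in WT and overlaps.

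The genes around the 10 were taken from 12 companion lists. They are given by counts at an FDR below 0.2 in testis, which 5.34% of all tested genes passed. A count of 1 in a list is close to that share and is not read as a result about the list. The lists were drawn up with earlier results of these data known, so no count in them is read against that share. Companion values did not have the trend on exon length removed. None of the 19 cholesterol synthesis genes passed; the estimates farthest from 0 were a log2 fold change of -0.29 for *Sc5d* (adjusted p = 0.453, edgeR) and -0.25 for *Hsd17b7* (adjusted p = 0.468). Of 12 genes of cholesterol supply and storage, 5 rose and none fell. *Stard5*, a cytosolic sterol carrier related to *Star*, rose from 7.92 ± 1.03 to 14.5 ± 2.02 CPM (log2 fold change 0.86, SE 0.13, adjusted p = 0.000207, edgeR). *Tspo*, a protein of the outer mitochondrial membrane, rose from 4.92 ± 0.495 to 6.92 ± 0.469 CPM (adjusted p = 0.0803). *Npc2* and *Lipa*, which release cholesterol from lysosomes, and *Abca1*, which exports it, rose 1.18-fold, 1.30-fold and 1.19-fold.

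Of 11 tested genes among other steroid enzymes and redox partners, 3 rose. *Cyp21a1*, the adrenal hydroxylase of glucocorticoid synthesis, rose 5.0-fold, from 3.06 ± 1.23 to 15.6 ± 4.63 CPM (log2 fold change 2.32, SE 0.33, adjusted p = 0.0232, edgeR); it has a near-identical pseudogene, which leaves its counts uncertain. *Fdxr*, the reductase that passes electrons towards the *Cyp11a1* enzyme, rose 1.21-fold (adjusted p = 0.169) and *Hsd17b11* 1.31-fold (adjusted p = 0.158). In LH and cAMP signalling 1 of 11 rose, *Gnas*, the stimulatory G protein subunit (1.23-fold, adjusted p = 0.0174), and *Prkacb* did not pass (log2 fold change 0.24, adjusted p = 0.311). Of 9 tested Leydig transcription factors, *Cebpb* rose from 1.09 ± 0.412 to 2.21 ± 0.451 CPM (adjusted p = 0.0861) and *Tcf21* did not pass (log2 fold change 0.50, adjusted p = 0.244).

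Among 12 other Leydig lineage transcripts 4 rose, all past the fold limit, and none fell. The list was drawn up with earlier results of these data known, so this count is a description and no independent result. *Sult1e1*, the sulfotransferase that inactivates estrogens, rose from 15.4 ± 6.22 to 101 ± 10.3 CPM (6.52-fold, adjusted p = 0.032, edgeR). It was also higher in ArKI IS and ArKI caput at an FDR below 0.01, so its rise was not particular to testis. The kallikreins *Klk1b21*, *Klk1b24* and *Klk1b27* rose 3.19-fold, 4.16-fold and 5.36-fold (adjusted p = 4.08e-09, 2.01e-10 and 1.74e-11); they belong to a family of near-identical genes between which reads may be split. These 4 rises in testis were larger than that of any of the 10 steroidogenic genes.

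**Figure D4:**
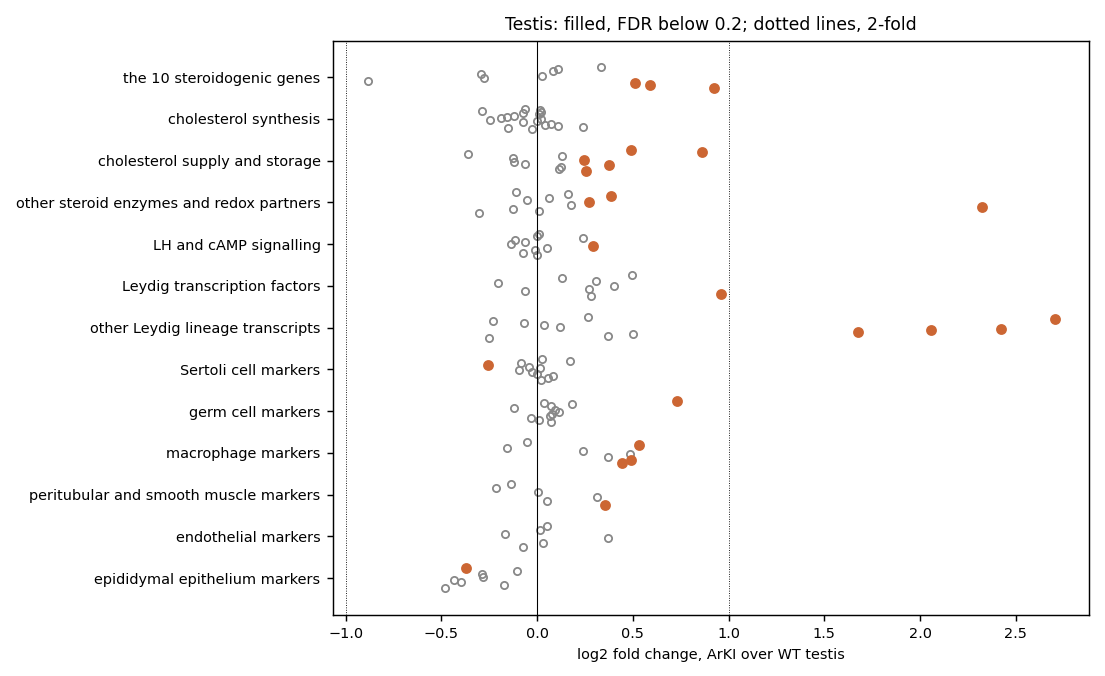
Log2 fold change of each tested gene, ArKI over WT testis, for the 10 steroidogenic genes and the 12 companion lists; points are genes, filled where the FDR was below 0.2, and dotted lines mark 2-fold. *Cyp11a1*, *Cyp17a1* and *Hsd17b3* lie at 0.92, 0.59 and 0.51, cholesterol synthesis genes lie around 0, and 4 other Leydig lineage transcripts lie between 1.67 and 2.71.

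Markers of other testis cells were set beside these values. Macrophage markers moved with the genotype: 3 of 8 rose (*C1qa* 1.36-fold, *C1qb* 1.41-fold, *Lyz2* 1.45-fold) and the list summed to 94.3 to 99.5 CPM in WT and 106 to 114 CPM in ArKI. Epididymal epithelium markers summed to 34.7 to 35.9 CPM in WT testis and 24.6 to 31.7 CPM in ArKI testis, with 1 of 8 tested genes lower (*Spag11b*, log2 fold change -0.37, adjusted p = 0.151) and log2 fold changes of -0.43 for *Lcn5* and -0.48 for *Adam7* (adjusted p = 0.273 and 0.445). Of 12 Sertoli cell markers 1 fell (*Inhbb*, log2 fold change -0.26, adjusted p = 0.127) and *Trf* had 0.17, with sums of 1339 to 1402 CPM in WT and 1312 to 1484 CPM in ArKI. Of 12 germ cell markers 1 rose (*Zbtb16*, 1.66-fold, adjusted p = 0.00833) and *Tnp1* did not pass (log2 fold change 0.18, adjusted p = 0.292); the sums were 15260 to 18300 CPM and 16620 to 19100 CPM. Of 6 peritubular and smooth muscle markers 1 rose (*Acta2*, 1.28-fold, adjusted p = 0.0226) and *Cnn1* had 0.31, with sums of 371 to 388 CPM and 364 to 426 CPM. No endothelial marker of 6 passed (*Kdr* 0.37, *Pecam1* -0.17), with sums of 21.5 to 24.2 CPM and 22.5 to 24.95 CPM. No listed marker of macrophage, Sertoli, germ, peritubular or endothelial cells was at 0 in testis. The part of these cells in the 3 rises was not tested.

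The mean z-score of the 10 genes over the 6 testis samples was 0.496, -0.725 and -0.598 in WT replicates 1 to 3 and 0.583, 0.073 and 0.171 in ArKI replicates 1 to 3, so WT replicate 1 resembled the ArKI samples on this average. *Star* (Pearson r = 0.952) and *Nr5a1* (0.892) followed it most closely among the 10, and *Hsd3b1* had r = -0.319. Among 11620 other genes of at least 5 CPM, *Maged1* (r = 0.999), *Qtrtd1* (0.991), *Hsp90ab1* (0.987), *B4galt5* (0.985) and *Ctdsp2* (0.985) had the profiles most like it, and 146 genes (1.26%) had r of 0.9 or more. These correlations describe 6 samples that share 2 genotypes.

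In the epididymis several genes of the pathway were not detected at this depth in either genotype. *Hsd3b6*, *Hsd17b3* and *Nr5a1* had 0 counts in all 20 epididymal libraries, and *Hsd3b1* had 1 count in 1 of them. Of the 10 genes, 4 passed the filter on low counts in IS and 3 in caput, so nothing is said of the rest as a group. *Scarb1* measured 161 to 195 CPM in WT IS (median 187) and 134 to 155 CPM in ArKI IS (median 150), replicate by replicate 189, 195, 161, 173 and 187 CPM against 147, 150, 134, 155 and 154 CPM. Every ArKI IS sample was below every WT sample. The fall on the log2 scale was -0.29 (SE 0.055, adjusted p = 0.000395, edgeR). It was the only 1 of the 4 tested genes past an FDR below 0.01 in IS, against 18.8% of the 13434 genes tested, and none passed the fold limit, which 4.04% of tested genes did (3 of the 4 had an unadjusted p under 0.05). Endothelial markers also moved in IS, with 5 of 6 lower and sums of 132 to 161 CPM in WT and 94.6 to 107 CPM in ArKI, as did smooth muscle markers, with 5 of 6 lower and sums of 3508 to 3750 CPM and 2902 to 3468 CPM. Of 9 epididymal epithelium markers 4 were lower (*Crisp1*, *Lcn8*, *Lcn9* and *Rnase10*) and 1 higher (*Adam7*), with sums of 61160 to 64870 CPM in WT and 53670 to 65470 CPM in ArKI. Of 8 macrophage markers 2 were lower (*Emr1* and *Csf1r*), with sums of 229.9 to 332 CPM and 213 to 295 CPM. No marker of these 4 lists was at 0 in IS. Their part in the fall of *Scarb1* was not tested.

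*Cyp11a1* in IS was counted 24, 12, 16, 6 and 20 times in WT and 24, 27, 20, 21 and 22 times in ArKI, or 1.84 ± 0.779 and 3.21 ± 0.498 CPM. The samples overlapped, with a log2 fold change of 0.77 (SE 0.26, adjusted p = 0.0319, edgeR), outside the limit of 0.01; in a fit of all 26 samples the adjusted p was 0.00989. *Cyp17a1* in IS was 1.22 ± 0.297 CPM in WT and 2.10 ± 0.750 CPM in ArKI (log2 fold change 0.80, SE 0.30, adjusted p = 0.0536, edgeR), and among the alternatives run passed only without ArKI IS replicate 3, the lowest ArKI sample (log2 fold change 0.99, adjusted p = 0.00861). *Star* in IS was 1.79 ± 0.580 and 1.88 ± 0.835 CPM (log2 fold change 0.05, SE 0.31, adjusted p = 0.924). *Insl3* was counted 4, 3, 4, 2 and 3 times in WT IS and 1, 2, 0, 1 and 1 times in ArKI IS. Part of these counts could belong to the overlapping gene *Jak3*, and all lie near or below the limit of 3 counts per library. An exact two-sided permutation test of log2(CPM + 0.5) gave p = 0.00794, the smallest that 5 against 5 samples allow, and 0.0238 adjusted over the 6 gene and segment pairs tested this way, for a difference of -0.47; the ratio of summed counts was 0.362 with a 95% interval for counting error alone from 0.104 to 1.03. edgeR did not call it, with a log2 fold change of -1.37 (adjusted p = 0.147) with no filter beyond 1 count and -1.39 (adjusted p = 0.118) in the fit of all 26 samples. *Lhcgr* was counted 8, 1, 0, 0 and 1 times in WT IS and 2, 1, 4, 2 and 0 times in ArKI IS (exact permutation p = 0.69, adjusted 0.828).

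**Figure D5:**
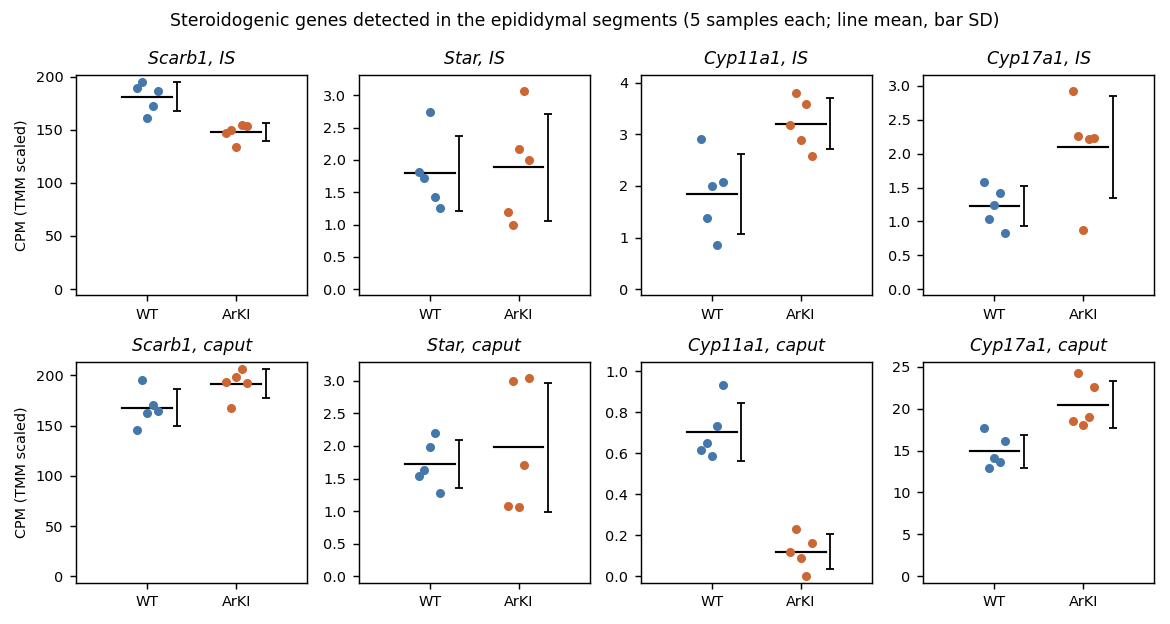
CPM of the 4 genes past the filter on low counts in IS, *Scarb1*, *Star*, *Cyp11a1* and *Cyp17a1*, in IS (top) and caput (bottom), 5 WT (blue) and 5 ArKI (orange) samples, with mean (line) and SD (bar) on separate linear axes. *Scarb1* lies lower in ArKI IS, and in caput *Cyp11a1* lies at 0.584 to 0.933 CPM in WT and 0 to 0.231 CPM in ArKI, while *Cyp17a1* lies higher in ArKI.

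In caput, *Cyp17a1* rose from 17.7, 12.9, 14.1, 13.6 and 16.1 CPM in WT to 18.5, 24.2, 18.0, 19.0 and 22.6 CPM in ArKI. The groups did not overlap, though the lowest ArKI sample was close to the highest WT sample. The log2 fold change was 0.44 (SE 0.11, adjusted p = 0.00487, edgeR), which made it 1 of 3 tested genes past an FDR below 0.01, against 18.0% of 13726 tested genes; none passed the fold limit, which 4.98% of tested genes did (2 of the 3 had an unadjusted p under 0.05). The call was lost without WT caput replicate 2, 3 or 4 or ArKI caput replicate 5, with adjusted p between 0.014 and 0.0173, while the log2 fold change stayed between 0.39 and 0.52 whichever caput library was left out. Endothelial markers were also higher in ArKI caput, with 2 of 6 past the same FDR (*Pecam1* and *Kdr*) and sums of 62.15 to 67.15 CPM in WT and 70.08 to 98.96 CPM in ArKI, without overlap. No macrophage marker of 8 and no smooth muscle marker of 6 passed, with sums of 128 to 175 CPM in WT and 163 to 282 CPM in ArKI for the first list and 834 to 1158 CPM and 673 to 1608 CPM for the second. Of 9 epididymal epithelium markers 1 was higher (*Ros1*) and 1 lower (*Defb15*), with sums of 41870 to 49250 CPM and 36460 to 52020 CPM. No marker of these 4 lists was at 0 in caput, and their part in the rise of *Cyp17a1* was not tested. *Scarb1* measured 168 ± 18.3 CPM in WT caput and 192 ± 14.5 CPM in ArKI caput (log2 fold change 0.20, SE 0.072, adjusted p = 0.0527, edgeR), and passed without WT caput replicate 2 or ArKI caput replicate 2 (adjusted p = 0.00835 and 0.00973). *Star* was 1.72 ± 0.363 and 1.98 ± 0.987 CPM (log2 fold change 0.15, SE 0.31, adjusted p = 0.771).

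*Cyp11a1* was counted 6, 6, 5, 6 and 8 times in WT caput and 1, 1, 1, 0 and 2 times in ArKI caput, below the filter on low counts. Every ArKI sample was below every WT sample. The summed counts of 31 and 5 gave an ArKI to WT ratio of 0.150, with a 95% interval for counting error alone from 0.0454 to 0.388, and the exact two-sided permutation test gave p = 0.00794 (adjusted 0.0238) for a difference of -0.96 in log2(CPM + 0.5). With no filter beyond 1 count, the log2 fold change was -2.58 (SE 0.57, adjusted p = 0.00122, edgeR). Of 7 tested germ cell markers in caput, 6 were lower in ArKI and 1, *Zbtb16*, was higher. The 12 listed germ cell markers summed to 130 to 212 CPM in WT and 29.5 to 54.5 CPM in ArKI. Their part in the fall of *Cyp11a1* was not tested. The Leydig genes *Hsd3b6*, *Hsd17b3* and *Nr5a1* were at 0 in all of these caput libraries. *Insl3* had 4 counts in WT caput and 8 in ArKI caput (exact permutation p = 0.381, adjusted 0.762), and *Lhcgr* 4 and 7 (exact permutation p = 0.54, adjusted 0.81).

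Whether the genotype effect differed between tissues was tested as an interaction in a fit of all 26 samples, for the genes that passed the filter on low counts in the segment. The effects on *Star*, *Cyp17a1* and *Scarb1* had differences of 0.20, 0.17 and -0.07 between testis and caput (adjusted p = 0.839, 0.489 and 0.745). *Cyp11a1* was below the filter in caput and entered this fit through its counts in the other tissues. Its fitted difference between testis and caput was 3.54 on the log2 scale (SE 0.55), given as a value without a test, and the gene was left out when 10 counts were required in every sample. Between testis and IS, the effect on *Scarb1* differed by 0.43 (SE 0.11, adjusted p = 0.00796, edgeR), 1 of 4 genes at an FDR below 0.05 against 11.8% of all tested genes. For *Cyp11a1*, which was higher on average in ArKI in both testis and IS, the difference was 0.20 (SE 0.24, adjusted p = 0.693), and for *Cyp17a1* it was -0.19 (SE 0.29, adjusted p = 0.766). *Star* had a difference of 0.32 (adjusted p = 0.742). Tissue and sequencing run coincide in these tests as well.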

How the data were processed

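RNA from testis, IS and caput was sequenced as 50-base single-end reads. Per the methods of the study, the authors aligned reads to mm10 with STAR and deposited whole-number counts of uniquely mapped reads per RefSeq gene, made with Subread 1.5.1; whether counting used strand is not given in the sources used here. The deposited counts were filtered with filterByExpr, scaled by TMM and tested with edgeR 4.0.16 (quasi-likelihood, Benjamini-Hochberg over all tested genes), within each tissue, across the 13 WT samples, or over all 26 samples for interactions. Between genotypes, genes named as changed passed the FDR limit of the study, below 0.2 (testis) or 0.01 (segments); its further limit, a fold change above 2, is given beside the counts, and none of the 10 genes met both limits with these settings. Tissue contrasts used an FDR below 0.05 with that fold limit, and interactions an FDR below 0.05 alone. Its test, ROTS, was not run. Standard errors are the log2 fold change divided by the square root of F. Genes below the filter were compared by exact permutation. Alternatives included DESeq2 1.42.0, limma 3.58.1, other scalings and filters, and leaving out each library. The scripts were tested on simulated data. Lengths and positions came from GENCODE (GRCm38); CPM per kb used the annotated transcript of each gene. No pair of replicates agreed within sampling noise (chi-square per degree of freedom at least 2.43, over genes with 20 or more counts in the pair). Named companion genes are those past the FDR in testis and the 2 of each list with the largest change; the 5 genes most like the 10 were taken by Pearson correlation. The 10 genes and the lists were chosen with earlier results of these data known.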

Additional observations from a re-analysis of the deposited data

Results flagged for a closer look

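The fitted genotype effect on *Cyp11a1* was apart between testis and caput by 3.54 on the log2 scale, but the gene was below the filter on low counts in caput, with 5 to 8 counts per WT library and 0 to 2 per ArKI library, and it was left out when 10 counts were required in every sample, so the difference is given without a test. The genotype effect on *Scarb1* differed between testis and IS by 0.434 on the log2 scale, with every ArKI IS sample below every WT IS sample and overlapping samples in testis. Of 14 groups of 5 epididymal samples of genes past the filter, none held a sample that stood apart by Dixon's criterion, against 0.7 expected by chance.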

How the results depend on the processing

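In testis, *Cyp11a1*, *Cyp17a1* and *Hsd17b3* stayed higher in ArKI and past an FDR below 0.2 in all 16 alternative fits, with log2 fold changes of 0.815 to 0.998, 0.491 to 0.664 and 0.41 to 0.573. With the fold limit 0 of the 10 genes were called; without it 3 were called in testis, 1 in IS and 1 in caput. Leaving out 1 testis library gave 0 to 1 genes past both limits, the 1 being *Hsd3b1* without WT testis replicate 3. When the FDR alone was applied together with each alternative, a combination added after the data had been seen, IS gave 2 genes in the fit of all 26 samples and 1 to 2 with 1 library left out, and caput gave 2 genes with no filter beyond 1 count, 2 in the fit of all 26 samples and 0 to 2 with 1 library left out. *Cyp11a1* was 1 gene past both limits in caput with no filter beyond 1 count, and 1 in the fit of all 26 samples, since both fits tested it. Requiring at least 10 counts in every sample left 1 gene higher in WT testis than in IS, 1 higher than in caput, 0 between WT IS and caput and 0 with an effect that differed between testis and caput, because this filter removes genes that are low in a segment. Without it the fits gave 9, 9, 3 (*Cyp17a1*, *Cyp11a1* and *Insl3*) and 1 (*Cyp11a1*); of these 3 and 1, *Cyp17a1* alone is taken as a call, since *Cyp11a1* and *Insl3* were below the filter on low counts in caput. The same filter moved the calls over all genes from 132 to 75 in testis, from 543 to 350 in IS, from 683 to 311 in caput, from 11442 to 6868 and 11415 to 6861 for WT testis against IS and caput, from 3678 to 1602 between WT IS and caput, and from 2361 to 1489 for the testis and caput interaction; the fit of all 26 samples gave 817 in IS and 1092 in caput.

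Signs changed for *Scarb1* between WT testis and IS (-0.264 by library size alone, -0.337 by upper quartile, -0.00174 with all counted genes kept, -0.0341 with the length trend removed) and caput (-0.149, -0.258 and, with the length trend removed, -0.00926), and for *Insl3* in testis with the length trend removed (-0.124); the cause was not tested. With 1 library left out, the log2 fold change ran from -0.123 to 0.175 for *Insl3* and from -0.476 to 0.178 for *Lhcgr* in testis, from -0.16 to 0.252 for *Star* in IS and from -0.135 to 0.331 for *Star* in caput, and the difference between testis and IS effects ran from -0.0152 to 0.344 for *Cyp11a1* and from -2.1 to 0.195 for *Lhcgr*. None of these genes had passed the test there. Pseudocounts of 0.1 and 1 CPM moved no exact test across 0.05 and turned no sign.

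Same-numbered WT and ArKI samples deviated together with correlations of only -0.00796 to 0.0532 in testis, -0.0936 to 0.196 in IS and -0.176 to 0.181 in caput, and not every sample correlated best with its own number, so the numbers were not taken as pairs. With the replicate number as a block, the 10 genes gave 0 calls with the fold limit in each tissue, and 4 in testis at the FDR alone, *Hsd3b1* being added (log2 fold change -0.848, adjusted p = 0.00271, edgeR). The limits set by depth are 3 counts per library, and by design 3 samples per genotype in testis.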
